A study of Mus musculus with 8 samples.

Results

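Fibroblast growth factor (FGF) signalling was described in the fetal mouse gonad through 10 genes: the ligand Fgf9, the intracellular factor Fgf13, the receptors Fgfr1, Fgfr2 and Fgfr3, the response transcription factors Etv4 and Etv5, and the feedback inhibitors Spry2, Spry4 and Dusp6. All probe sets that the array annotation assigns to these genes alone were taken, which gave 24 of the 45037 probe sets tested, with 10 of 10 genes present and 0 probe sets shared with another gene. Transcripts were measured on 8 Affymetrix mouse arrays in 4 groups of 2: EGFP-positive cells sorted from XY gonads, called Sertoli cells in the labels, EGFP-positive cells sorted from XX gonads, called pre-granulosa cells, whole XY testes and whole XX ovaries. All samples were from embryonic day 13 and carried the strain label C57BL6/J-Tg92, a line known for an EGFP transgene under Sry regulatory sequences. Each Sertoli sample held about 22000 cells, each pre-granulosa sample about 30000 cells, and each whole-organ sample 4 gonads. Whether replicate samples stem from different animals is not in the labels, so p-values rest on the spread between these samples, which may be technical, and the number of arrays limits the precision.

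Secreted FGFs bind receptor tyrosine kinases together with heparan sulfate and activate the RAS and ERK cascade. Cells that receive the signal transcribe the ETS factors Etv4 and Etv5 and the inhibitors of the Sprouty and DUSP families, so that these transcripts are widely read as a response, although other receptor tyrosine kinases raise them too. In the XY mouse gonad Fgf9 acts through Fgfr2, is needed for Sertoli cell fate and testis formation, and opposes Wnt4.

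The labelled cell types and the arrays were checked first. Dhh, the hedgehog ligand of Sertoli cells, read 12.35 and 12.19 in Sertoli cells, against 5.17 and 6.39 in pre-granulosa cells (log2 expression), and Foxl2, a granulosa cell transcription factor, read 5.19 and 5.43 in Sertoli cells, against 8.99 and 9.65 in pre-granulosa cells. Of the 6 germ cell markers listed, 0 were called between the sorted cell types, and their summed level was 176 to 215 in Sertoli and 134 to 150 in pre-granulosa arrays (linear units), with 7748 to 9115 in testes and 8666 to 9129 in ovaries. The median array value was 5.58 over the sorted arrays and 5.97 over the gonad arrays, and ranked values were nearly equal within each set, so the sets appear to have been normalized separately. Differences are therefore taken within a set, and across sets only after each array was centred on its median. The summed marker levels are on values as deposited, also where both sets are given. Control probes for transcript ends differed most in pre-granulosa replicate 1, where the 3′ end read 3.08 (actin) and 3.68 (Gapdh) log2 units above the far end. Values at or under 4.78, the highest reading of 9 Y-linked probe sets in XX arrays, are called background here.

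The first comparison asked which members distinguish XY from XX supporting cells. The FGF response genes Etv4, Etv5 and Spry4 and the intracellular factor Fgf13 were higher in Sertoli cells, and the receptor Fgfr2 was lower. In all, 4 of the 24 probe sets were called higher and 1 lower, in 5 of the 10 genes, against 1.81% of all probe sets called in either direction (0.999% higher and 0.813% lower). Calls were made with limma over all 8 arrays at an adjusted p of 0.01 (Benjamini-Hochberg over all 45037 probe sets). The median difference, Sertoli minus pre-granulosa, was 0.26 over the 24 probe sets and 0.01 over all probe sets. Both Sertoli arrays lay above both pre-granulosa arrays for 12 probe sets, or 50% against 20.9% of all probe sets, and below them for 4, or 16.7% against 20.5%. Etv5 at 1450082_s_at, counted among the 12, was at background in every sorted array. Of the 5 calls 1, that of Fgf13, was left without any one Sertoli or testis array, and 2, those of Fgf13 and Fgfr2, without either ovary array. With the 4 sorted arrays alone in the fit 0 of the 24 were called by limma, as were 0 of all probe sets.

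**Figure D1:**
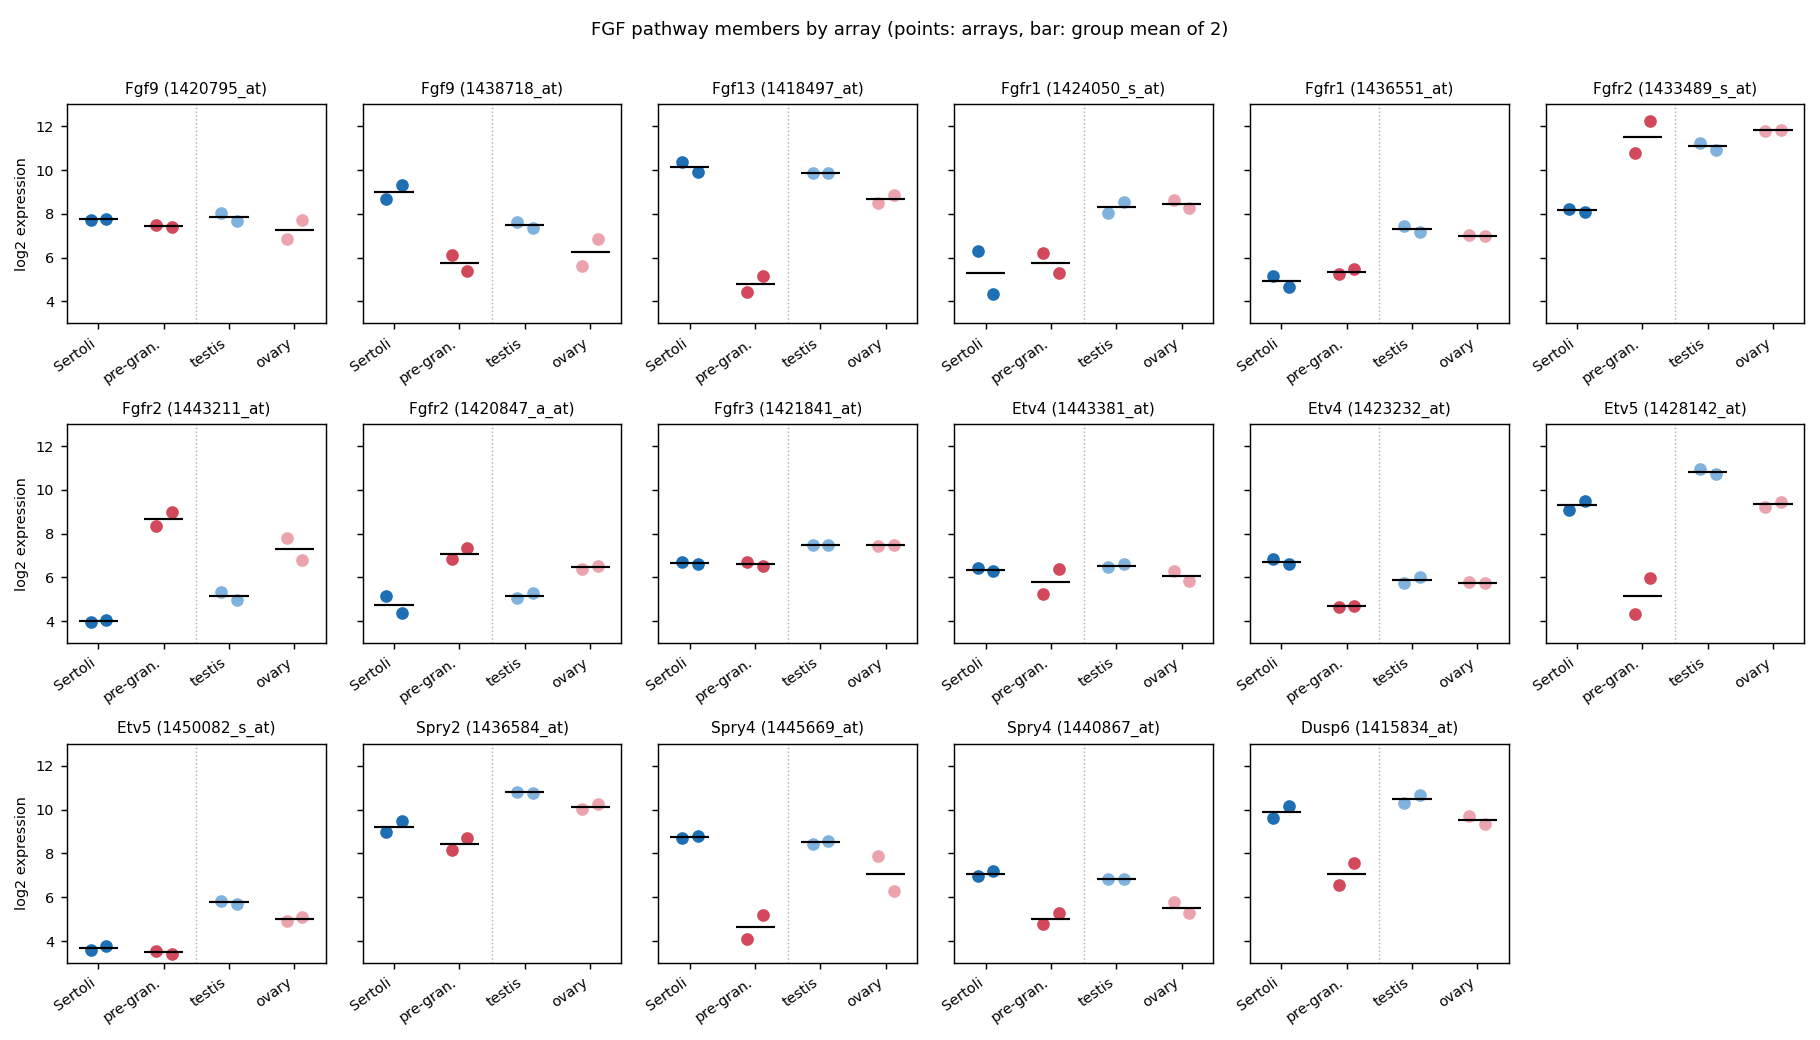
Log2 expression of 17 probe sets of the 10 genes, 1 panel each. Points are arrays and bars are means of the 2 arrays of a group; the dotted line parts the sorted cells (left) from the whole gonads (right), which appear to have been normalized separately. Fgf13, Etv5 (1428142_at), Spry4 (1445669_at) and Dusp6 read at least 8.73 in Sertoli cells and at most 7.55 in pre-granulosa cells, while the 3 Fgfr2 probe sets run the other way.

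Fgf9 encodes the secreted ligand of the testis pathway and lies on chromosome 14. Its probe set 1438718_at read 8.67 and 9.30 in Sertoli cells, against 6.11 and 5.41 in pre-granulosa cells. Both Sertoli arrays were well above both pre-granulosa arrays, and the difference of 3.22 ± 0.46 (log2 ± SE, 9.33-fold) narrowly missed the threshold (adjusted p = 0.0149). It passed when dim probe sets were left out of the test (adjusted p = 0.00979) and at a threshold of 0.05, and in no other setting tried. Over the omissions of an array the difference ranged from 2.87 to 3.57. The other probe set, 1420795_at, has the higher mean of the pair and read 7.73 and 7.78 in Sertoli cells, against 7.50 and 7.40 in pre-granulosa cells. The groups did not overlap there either, but the difference was only 0.31 ± 0.30 (adjusted p = 0.674). The 2 probe sets of the ligand therefore disagree on the size of the difference.

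Fgf13 encodes an FGF homologous factor that is not secreted, and that binds voltage-gated sodium channels and microtubules inside the cell. It lies on the X chromosome. Its probe set 1418497_at read 10.38 and 9.91 in Sertoli cells, against 4.42 and 5.18 in pre-granulosa cells, where the level was close to background. The difference of 5.35 ± 0.30 (adjusted p = 0.00122) was 5.17 (35.9-fold) with the 1 pre-granulosa array at background raised to that level, and it was called without any one of the 8 arrays. It was not called with the sorted arrays alone (adjusted p = 0.0632). Its second probe set, 1418498_at, was at background in all 4 sorted arrays (4.16 and 4.53 in Sertoli cells, against 4.28 and 4.14 in pre-granulosa cells).

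The receptors did not move together. Fgfr2, which receives the FGF9 signal in the XY gonad, read lower in Sertoli cells at all 3 of its probe sets, of which 1 was called. Probe set 1443211_at read 3.95 and 4.06 in Sertoli cells, against 8.36 and 8.97 in pre-granulosa cells, a difference of -4.66 ± 0.37 (adjusted p = 0.00252). Since both Sertoli arrays were at background, Sertoli cells were at least 14.8-fold lower at this probe set. Without either Sertoli array or either testis array it was no longer called (adjusted p = 0.0149 and 0.0171, and 0.0139 for both testis arrays). Probe set 1433489_s_at read 8.20 and 8.11 in Sertoli cells, against 10.78 and 12.26 in pre-granulosa cells, so that transcript was well above background on both sides. Its difference of -3.36 ± 0.45 (10.3-fold) was not called (adjusted p = 0.0123). It was -4.10 without pre-granulosa replicate 1 and -2.62 without replicate 2. Either omission removes the wide spread between these arrays from the fit, so a lower p-value there says little. The third, 1420847_a_at, read 5.14 and 4.36 in Sertoli cells, against 6.83 and 7.34 in pre-granulosa cells (-2.33 ± 0.31, adjusted p = 0.0114).

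Fgfr1, a receptor of mesenchymal cells, was not called between the sorted cell types at any of its 3 probe sets. Its probe set 1424050_s_at read 6.29 and 4.34 in Sertoli cells, against 6.19 and 5.29 in pre-granulosa cells (-0.42 ± 0.65, adjusted p = 0.815). The groups overlapped there. At 1436551_at they did not, with 5.18 and 4.67 in Sertoli cells, against 5.25 and 5.48 in pre-granulosa cells (-0.44 ± 0.22, adjusted p = 0.356). The third, 1425911_a_at, differed by 0.06 ± 0.20. Fgfr3, known best as a brake on cartilage growth, read 6.73 and 6.60 in Sertoli cells, against 6.72 and 6.53 in pre-granulosa cells at 1421841_at (0.04 ± 0.14, adjusted p = 0.942), with groups that overlapped. Its other probe set differed by 0.11 ± 0.16.

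The response genes had measured differences of 0.12 to 4.13. They hold 12 of the 24 probe sets, of which 3 were called higher in Sertoli cells and 0 lower, with 8 not overlapping upwards and 0 downwards, against the 0.999% and 0.813% called and the 20.9% and 20.5% not overlapping among all probe sets. The 8 include Etv5 at 1450082_s_at, at background in every sorted array, where the order of arrays gives no direction. They also include Spry4 at 1422021_at, with both pre-granulosa arrays at background. Upstream sequence is shown for the response genes Dusp6 and Etv5 (both start sites that RefSeq gives) and for the ligand Fgf9. The ETS core GGAA was searched because Etv4 and Etv5 are ETS factors, and AACAAT because SOX factors act in these cells. Each sequence is the 250 bases before a start site in GRCm38.p6, 5′ to 3′ on the gene's strand, with matches on either strand in capitals (GGAA and AACAAT or their reverse complements). They stand at chr10:99262981-99263230 (plus strand) for Dusp6, at chr16:22439571-22439820 and chr16:22438369-22438618 (minus strand) for Etv5 start sites 1 and 2, and at chr14:58072436-58072685 (plus strand) for Fgf9.
Dusp6: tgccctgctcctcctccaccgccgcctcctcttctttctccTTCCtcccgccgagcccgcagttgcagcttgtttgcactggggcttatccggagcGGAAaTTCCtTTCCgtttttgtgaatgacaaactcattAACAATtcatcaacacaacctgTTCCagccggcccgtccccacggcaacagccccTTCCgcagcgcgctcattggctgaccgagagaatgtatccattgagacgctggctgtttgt
Etv5 start site 1: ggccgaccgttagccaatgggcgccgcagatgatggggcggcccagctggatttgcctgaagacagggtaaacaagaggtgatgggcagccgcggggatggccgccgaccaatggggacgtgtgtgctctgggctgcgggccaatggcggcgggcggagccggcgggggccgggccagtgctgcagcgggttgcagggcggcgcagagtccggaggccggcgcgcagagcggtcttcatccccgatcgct
Etv5 start site 2: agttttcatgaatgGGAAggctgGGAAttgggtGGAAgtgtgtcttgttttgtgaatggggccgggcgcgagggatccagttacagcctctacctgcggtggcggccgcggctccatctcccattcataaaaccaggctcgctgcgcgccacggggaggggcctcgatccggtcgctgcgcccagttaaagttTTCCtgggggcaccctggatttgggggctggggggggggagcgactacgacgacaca
Fgf9: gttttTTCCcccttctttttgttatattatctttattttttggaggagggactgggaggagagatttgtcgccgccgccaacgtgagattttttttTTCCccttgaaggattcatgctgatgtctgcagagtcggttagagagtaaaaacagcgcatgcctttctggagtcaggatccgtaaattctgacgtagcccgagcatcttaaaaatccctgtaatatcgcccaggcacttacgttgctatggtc
The Dusp6 sequence holds 6 GGAA cores, Etv5 start site 1 holds 0, Etv5 start site 2 holds 4 and Fgf9 holds 2. Over all 32851 RefSeq promoter windows of this length, 93.4% hold at least 1 core, the median is 3 and 8.69% hold 6 or more. AACAAT, which overlaps none of the cores, stands 116 bases before the Dusp6 start and in none of the other 3 sequences. Of all windows 9.42% hold it. Among the 12 windows searched for the members, 1 holds AACAAT and 11 hold the GGAA core. The longer ETS motif CCGGAAGT and the cyclic AMP response element TGACGTCA are in 0 of the 12 windows that 7 of the 10 genes have in this table, and in 2.88% and 1.55% of all windows. A match is a run of letters and not a measured binding site.

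Etv5, an ETS transcription factor of the PEA3 group on chromosome 16, read 9.07 and 9.51 in Sertoli cells at 1428142_at, against 4.33 and 6.0 in pre-granulosa cells. The pre-granulosa arrays lay far apart, with replicate 1 at background, yet both were over 3 log2 units below the Sertoli arrays. Replicate 1 also had the widest gap between transcript ends. It was the lower pre-granulosa array for Fgf13 at 1418497_at, Spry4 at 1445669_at and 1440867_at, Dusp6 and Fgfr2 too, but the higher for Fgf9 at 1438718_at. The part of RNA quality in these readings was not tested. The difference of 4.13 ± 0.51 was called (adjusted p = 0.00957), and it was 3.90 (14.9-fold) with the array at background raised to that level. It was not called without any one of the Sertoli, testis or ovary arrays (adjusted p = 0.0320 to 0.0527) or with quantile normalization over all arrays (0.0103). Of its other probe sets, 1450082_s_at was at background in all 4 sorted arrays (3.60 and 3.79 in Sertoli cells, against 3.55 and 3.42 in pre-granulosa cells) and 1420998_at had groups that overlapped (5.08 and 6.47 in Sertoli cells, against 6.01 and 4.91 in pre-granulosa cells).

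Etv4, the close relative of Etv5 on chromosome 11, read 6.82 and 6.63 in Sertoli cells at 1423232_at, against 4.65 and 4.72 in pre-granulosa cells. Both pre-granulosa arrays were at background, so the level at this probe set was at least 3.85-fold higher in Sertoli cells (measured difference 2.04 ± 0.16, adjusted p = 0.00236). It was not called without any one of the Sertoli, testis or ovary arrays (adjusted p = 0.0119 to 0.0126). At 1443381_at, which has the higher mean, the groups overlapped, with 6.41 and 6.30 in Sertoli cells, against 5.25 and 6.38 in pre-granulosa cells (0.54 ± 0.37, adjusted p = 0.518).

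Among the feedback inhibitors, Spry4 was called and Dusp6 came close. Spry4, a Sprouty protein that dampens the RAS and ERK cascade, read 6.95 and 7.21 in Sertoli cells at 1440867_at, against 4.76 and 5.28 in pre-granulosa cells (2.06 ± 0.26, 4.17-fold, adjusted p = 0.00954). This call held in 1 of the 8 omissions of an array, that of pre-granulosa replicate 2, with an adjusted p of 0.0196 to 0.0502 in the others. Its probe set with the highest mean, 1445669_at, read 8.73 and 8.78 in Sertoli cells, against 4.10 and 5.18 in pre-granulosa cells. Its difference of 4.11 ± 0.57 missed the threshold (adjusted p = 0.0136). With the 1 pre-granulosa array at background raised to that level it was 3.77 (13.6-fold). The 2 Spry4 probe sets near background, 1422020_at and 1422021_at, differed by 0.21 ± 0.29 and 0.53 ± 0.16, neither called.

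Dusp6, a phosphatase that inactivates ERK in the cytoplasm, has 1 probe set, which read 9.62 and 10.19 in Sertoli cells, against 6.55 and 7.55 in pre-granulosa cells. The groups were about 2 log2 units apart at their nearest, and the difference of 2.86 ± 0.38 (7.24-fold) was not called (adjusted p = 0.0121). Over the omissions of an array this difference ranged from 2.36 to 3.35. The largest left only pre-granulosa replicate 1 in its group, the array with the widest gap between transcript ends. Spry2, another Sprouty protein, read 8.96 and 9.50 in Sertoli cells, against 8.17 and 8.73 in pre-granulosa cells at 1436584_at, so the groups came close without overlap (0.78 ± 0.26, 1.72-fold, adjusted p = 0.178). Its second probe set, 1421656_at, was near background, with 4.85 and 4.77 in Sertoli cells, against 4.62 and 4.77 in pre-granulosa cells.

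Marker lists of other cell types and states were read beside the members in the same arrays. Of 5 G2 and M phase genes measured 4 were called higher in Sertoli cells, with a summed level of 6154 to 8632 in Sertoli and 381 to 894 in pre-granulosa arrays (linear units). Of 6 immediate early genes, which dissociation can raise, 0 were called, with 13864 to 16569 in Sertoli and 8133 to 12790 in pre-granulosa arrays, and with 4832 to 4964 in testes and 3447 to 3656 in ovaries. Of 5 macrophage genes 1, C1qb, was called higher in Sertoli cells (788 to 3236 in Sertoli and 164 to 165 in pre-granulosa arrays). The 4 fetal Leydig cell genes measured summed to 1826 to 3115 in Sertoli and 634 to 900 in pre-granulosa arrays, with 0 called, and the 5 interstitial genes to 3936 to 4114 and 710 to 5099, with 0 called. The part of these cells and states in the member differences was not tested.

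**Figure D2:**
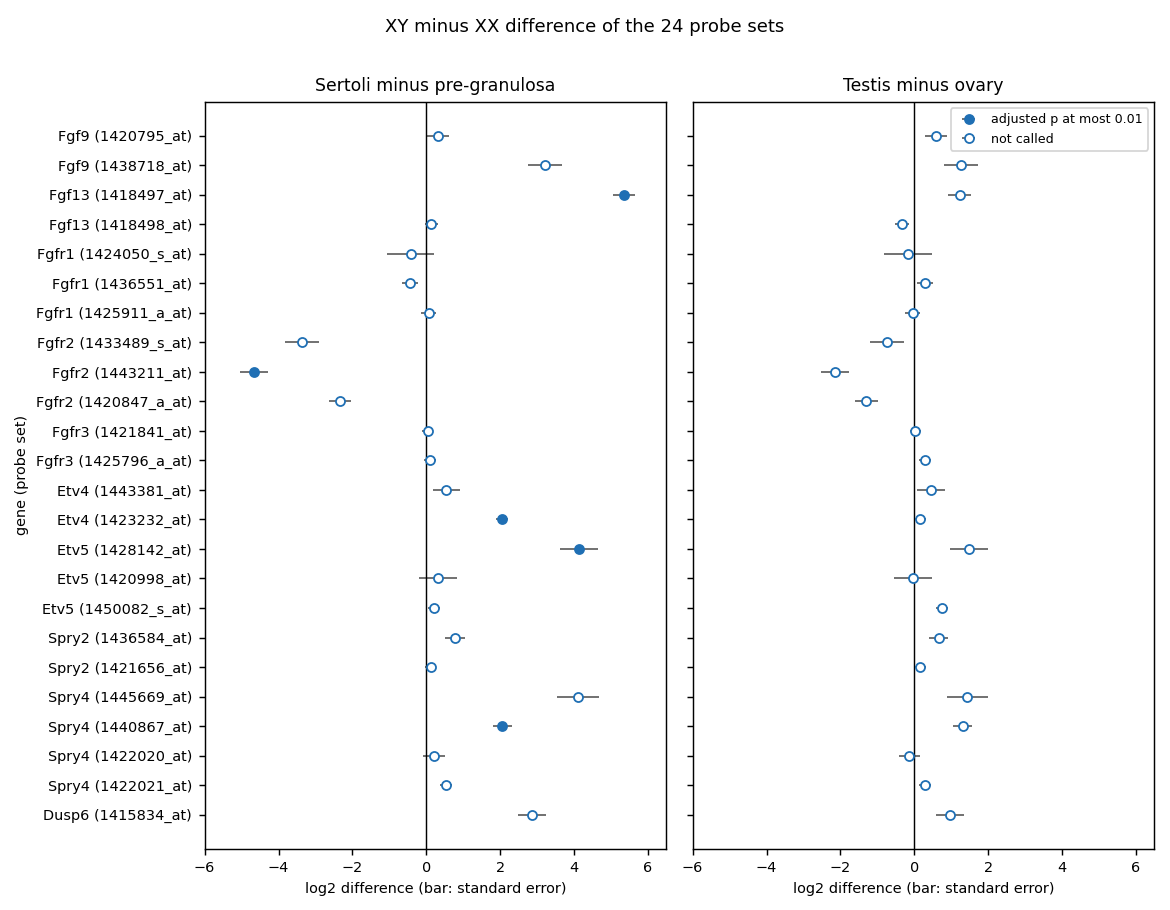
Log2 difference with its standard error for all 24 probe sets in Sertoli minus pre-granulosa cells (left) and testis minus ovary (right). Filled points passed an adjusted p of 0.01; 5 are filled on the left and 0 on the right.

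The second comparison asked the same of whole organs. In testis minus ovary 0 of the 24 probe sets were called by limma, against 0.215% of all probe sets, while 10 had an unadjusted p under 0.05 (41.7%, against 9.31% of all). The median difference was 0.29 over the 24 and -0.02 over all probe sets. Both testis arrays lay above both ovary arrays for 13 probe sets (54.2%, against 23% of all) and below them for 5 (20.8%, against 27%). Spry4 at 1422021_at, counted among the 13, was at background in every testis and ovary array. In whole organs fewer cells of a type and less RNA per cell cannot be told apart.

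Fgf9 read 7.64 and 7.35 in testes at 1438718_at, against 5.63 and 6.84 in ovaries (1.26 ± 0.46, 2.39-fold, adjusted p = 0.459). Both testis arrays were above both ovary arrays, and the ovary arrays lay more than a log2 unit apart. At 1420795_at the groups overlapped, with 8.03 and 7.69 in testes, against 6.83 and 7.72 in ovaries (0.58 ± 0.30). Fgf13 read 9.88 and 9.89 in testes at 1418497_at, against 8.47 and 8.84 in ovaries (1.22 ± 0.30, 2.34-fold, adjusted p = 0.217). Ovaries thus held a clear Fgf13 level, in contrast to the sorted pre-granulosa cells (-3.48 ± 0.30 in pre-granulosa minus ovary on centred values).

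Fgfr2 was again on the XX side at all 3 probe sets, with 0 called. At 1443211_at it read 5.32 and 4.95 in testes, against 7.79 and 6.79 in ovaries (-2.15 ± 0.37, 4.44-fold, adjusted p = 0.0912), the smallest adjusted p among the 24. At 1433489_s_at the level was high on both sides, with 11.25 and 10.91 in testes, against 11.80 and 11.84 in ovaries (-0.74 ± 0.45, adjusted p = 0.757). The third read 5.05 and 5.28 in testes, against 6.40 and 6.53 in ovaries (-1.30 ± 0.31, adjusted p = 0.198). None of the 3 overlapped between the organs. Fgfr1 differed by -0.17 ± 0.65, 0.29 ± 0.22 and -0.05 ± 0.20 at its 3 probe sets, and Fgfr3 by 0.03 ± 0.14 and 0.30 ± 0.16.

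Etv5 read 10.94 and 10.71 in testes at 1428142_at, against 9.23 and 9.45 in ovaries (1.48 ± 0.51, 2.79-fold, adjusted p = 0.423). The organs did not overlap, and the gap between them was smaller than the gap between the sorted cells. At 1450082_s_at, at background in the sorted cells, Etv5 read 5.85 and 5.67 in testes, against 4.94 and 5.08 in ovaries (0.75 ± 0.16, adjusted p = 0.144). Spry4 read 6.83 and 6.85 in testes at 1440867_at, against 5.79 and 5.26 in ovaries (1.31 ± 0.26, 2.48-fold, adjusted p = 0.125). At 1445669_at the ovary arrays lay far apart, with 8.43 and 8.59 in testes, against 7.87 and 6.27 in ovaries (1.44 ± 0.57, adjusted p = 0.507).

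Dusp6 read 10.32 and 10.68 in testes, against 9.72 and 9.35 in ovaries (0.97 ± 0.38, 1.96-fold, adjusted p = 0.504), again without overlap. Spry2 read 10.83 and 10.76 in testes, against 10.01 and 10.26 in ovaries at 1436584_at (0.66 ± 0.26, 1.58-fold, adjusted p = 0.522). Etv4 differed by 0.15 ± 0.16 at 1423232_at, where the organs overlapped with 5.76 and 6.04 in testes, against 5.78 and 5.72 in ovaries. The 4 fetal Leydig cell genes, of which 3 were called, summed to 10196 to 11997 in testes and 676 to 746 in ovaries (linear units), and their part in these differences was not tested.

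Whether the XY minus XX difference itself was larger in sorted cells than in organs was tested as the difference of the 2 differences, in which a level shift between the sets cancels. Of the 24 probe sets 0 passed by limma, as did 0% of all probe sets, and 9 had an unadjusted p under 0.05 (37.5%, against 11.4% of all). Fgf13 at 1418497_at had the lowest adjusted p, with a difference of 5.35 in sorted cells and 1.22 in organs (excess 4.12 ± 0.43, adjusted p = 0.0391). Etv4 at 1423232_at followed, with 2.04 and 0.15 (excess 1.90 ± 0.23, adjusted p = 0.0506). The excess was 2.64 ± 0.73 for Etv5 at 1428142_at, 2.67 ± 0.80 for Spry4 at 1445669_at, 1.89 ± 0.54 for Dusp6 and 1.96 ± 0.65 for Fgf9 at 1438718_at, and it was -2.63 ± 0.64 and -2.51 ± 0.53 for Fgfr2 at 1433489_s_at and 1443211_at (adjusted p = 0.146 to 0.326 for these 6). For Spry2 at 1436584_at it was 0.13 ± 0.37. Other probe sets of these genes gave smaller values. The excess was 0.75 ± 0.36 for Spry4 at 1440867_at and -1.03 ± 0.43 for Fgfr2 at 1420847_a_at (adjusted p = 0.525 and 0.446). It was -0.27 ± 0.42 for Fgf9 at 1420795_at and 0.09 ± 0.52 for Etv4 at 1443381_at. Etv5 at 1450082_s_at, at background in the sorted cells, gave -0.54 ± 0.22 (adjusted p = 0.434).

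Sorted cells were then set against the whole organ of the same sex, on values centred on each array's median. Centring moved the median difference of all probe sets by 0.40 for Sertoli minus testis (to 0.19) and by 0.38 for pre-granulosa minus ovary (to 0.13). In Sertoli minus testis 1 of the 24 was called higher and 2 lower, against 6.7% of all probe sets called (2.97% higher and 3.73% lower). In pre-granulosa minus ovary 0 were called higher and 3 lower, against 5.51% of all (2.43% higher and 3.08% lower). Without centring the calls were 0 higher and 4 lower, and 0 higher and 8 lower, against 8.64% and 8.28% of all probe sets called. Leaving out either testis array, or Sertoli replicate 2, gave 0 calls for Sertoli minus testis, and leaving out any testis or ovary array gave 0 for pre-granulosa minus ovary.

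Etv5 and Fgf13 were lower in pre-granulosa cells than in the ovary. Etv5 at 1428142_at differed by -3.80 ± 0.52 (adjusted p = 0.00724) and Fgf13 at 1418497_at by -3.48 ± 0.30 (adjusted p = 0.00238). With the 1 pre-granulosa array at background raised to that level these were -3.57 (11.9-fold) and -3.30 (9.83-fold). Etv5 at 1450082_s_at was called too (-1.15 ± 0.15, adjusted p = 0.00671), but both pre-granulosa arrays were at background and the ovary arrays close to it, so no fold can be given. Beside these, 6 of 6 germ cell markers and 4 of 5 G2 and M phase genes were called lower in pre-granulosa cells (medians -5.14 and -3.58), and their part was not tested. Without a testis or an ovary array the adjusted p was 0.0125 to 0.0245 for Fgf13 and 0.0249 to 0.0524 for Etv5 at 1428142_at, which was also lost without a Sertoli array (0.0139). At 1450082_s_at the call was lost in all 8 omissions (0.0108 to 0.0490). Dusp6 and Spry4 at 1445669_at differed by -2.10 ± 0.39 and -2.05 ± 0.57 and were not called (adjusted p = 0.0165 and 0.0505). At 1440867_at, the Spry4 probe set called between the sorted cells, the difference was -0.13 ± 0.26 (adjusted p = 0.749), with arrays that overlapped. Fgf9 at 1438718_at differed by -0.09 ± 0.45, with arrays that overlapped. Fgfr2 ran the other way at 1443211_at (1.76 ± 0.38, adjusted p = 0.0252) and not at 1433489_s_at (0.08 ± 0.45, and -0.30 without centring).

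In Sertoli minus testis, where 6 of 6 germ cell markers were called lower (median -4.59) and 0 of 5 G2 and M phase genes were called, Etv4 at 1423232_at was called higher in the sorted cells (1.23 ± 0.16, 2.34-fold, adjusted p = 0.00619). It was not called without centring (adjusted p = 0.0155), nor without any one of the Sertoli, testis or ovary arrays (0.0176 to 0.0567). Fgf9 at 1438718_at was 1.89 ± 0.45 above the testis (3.70-fold, adjusted p = 0.0303) without being called. Fgf13, Spry4 at 1445669_at and Dusp6 differed by 0.66 ± 0.30, 0.64 ± 0.57 and -0.20 ± 0.39, all within 0.7 log2 units of the organ and not called. Etv5 was called lower in Sertoli cells than in the testis at 1450082_s_at, with a measured difference of -1.67 ± 0.15 (adjusted p = 0.00249, with 0.0101 to 0.0336 without a Sertoli or a testis array). Both Sertoli arrays were at background there, so the difference is bounded at -0.58 on the log2 scale. Etv5 differed by -1.14 ± 0.52 at 1428142_at (adjusted p = 0.147).

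Fgfr1 was lower in Sertoli cells than in the testis at 1436551_at, where it was called, and at 1424050_s_at, where it was not. Its values there for pre-granulosa minus ovary lay on the same side without a call. At 1425911_a_at Fgfr1 differed by only 0.04 ± 0.19 in Sertoli minus testis and -0.09 ± 0.19 in pre-granulosa minus ovary. Neither was called (adjusted p = 0.892 and 0.765), and the arrays overlapped in both. At 1436551_at it differed by -1.97 ± 0.22 in Sertoli minus testis, which was called (3.92-fold lower, adjusted p = 0.00395, with 0.0130 to 0.0436 without Sertoli replicate 2 or any testis or ovary array), and by -1.26 ± 0.22 in pre-granulosa minus ovary (adjusted p = 0.0135). At 1424050_s_at it differed by -2.58 ± 0.64 and -2.35 ± 0.64 (adjusted p = 0.0340 and 0.0480). Beside this, the 5 interstitial markers had a summed level of 3936 to 4114 in Sertoli arrays and 26578 to 27067 in testes, and 710 to 5099 in pre-granulosa arrays and 18370 to 20298 in ovaries. Fgfr2 at 1433489_s_at was -2.53 ± 0.45 in Sertoli minus testis (adjusted p = 0.0138). Spry2 at 1436584_at differed by -1.17 ± 0.27 and -1.31 ± 0.27 in Sertoli minus testis and pre-granulosa minus ovary (adjusted p = 0.0272 and 0.0218), neither called. The immediate early genes Fos and Egr1 were called higher in both sorted types, Fos by 4.30 ± 0.41 in Sertoli minus testis and 4.04 ± 0.41 in pre-granulosa minus ovary, and Egr1 by 2.41 ± 0.21 and 3.20 ± 0.21. The part of other cell types and of dissociation in these differences was not tested.

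**Figure D3:**
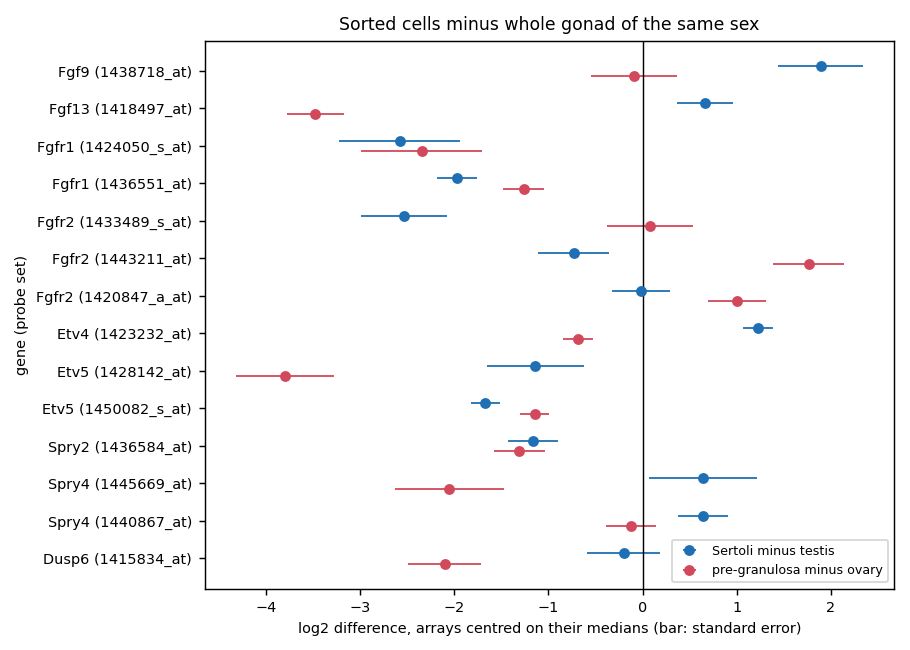
Log2 difference with its standard error between sorted cells and the whole organ of the same sex for the 14 probe sets with a difference above 1.2 in any sex or set comparison, on values centred on each array's median. Fgf13, Etv5 at 1428142_at, Spry4 at 1445669_at and Dusp6 lie between -3.80 and -2.05 in pre-granulosa minus ovary and between -1.14 and 0.66 in Sertoli minus testis, and both Fgfr1 probe sets are below 0 on both sides. Measured values are plotted, also where arrays were at background.

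The rest of the pathway was read through 7 lists with 88 entries, of which 80 were measured, each by its probe set with the highest mean. Of these 1 was called higher and 1 lower in Sertoli cells, and 0 were called between the organs, with medians of 0.06 and 0.00. Over all probe sets 1.81% and 0.215% were called in these comparisons. Map2k1, which encodes MEK1, a kinase that activates ERK, read 9.01 and 9.58 in Sertoli cells, against 7.13 and 7.35 in pre-granulosa cells (2.06 ± 0.22, 4.17-fold, adjusted p = 0.00630) and was level between testes and ovaries (0.08 ± 0.22). It was the 1 called of 13 cytoplasmic transducers measured. This call was lost without Sertoli replicate 2, pre-granulosa replicate 1 or any testis or ovary array (adjusted p = 0.0168 to 0.0271).

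Sulf1, an extracellular enzyme that trims 6-O-sulfate groups from heparan sulfate, was the 1 called of 10 heparan sulfate genes by their probe sets with the highest mean. It read 11.09 and 10.93 in Sertoli cells at 1438200_at, against 13.42 and 13.25 in pre-granulosa cells (-2.32 ± 0.15, 5.0-fold lower, adjusted p = 0.00147). A second probe set, 1436319_at, was called too, with 4.24 and 5.0 in Sertoli cells, against 9.78 and 10.14 in pre-granulosa cells (-5.35 ± 0.28, adjusted p = 0.00110, and -5.07 with the 1 Sertoli array at background raised to that level). The organs kept the same side, with -0.75 ± 0.15 at 1438200_at (adjusted p = 0.127), not called. Without Sertoli replicate 2 or either testis array the first call was lost (adjusted p = 0.0107 and 0.0103).

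Of 17 other secreted FGF ligands 0 were called in either comparison, and 7 of them were at background in both Sertoli arrays. Fgf18, a ligand of bone and lung growth, had the largest difference among them, with 9.24 and 9.10 in Sertoli cells, against 7.66 and 6.60 in pre-granulosa cells (2.04 ± 0.34, adjusted p = 0.0242). Of 13 other feedback inhibitors and 13 other ERK response genes, 0 were called in either comparison by their probe set with the highest mean. Their list medians in Sertoli minus pre-granulosa were -0.26 and 0.23. Ier3, an early ERK response gene, differed by 1.61 ± 0.22 (adjusted p = 0.0138), Fos by -0.03 ± 0.40 and Egr1 by 0.48 ± 0.20. Fgf11, a relative of Fgf13, differed by -2.16 ± 0.41 (adjusted p = 0.0381), and Cd44, a coreceptor, by -3.83 ± 1.06 (adjusted p = 0.110), its pre-granulosa arrays lying far apart. The other genes with the widest differences in their lists were not called either: Fgf4 (0.73) and Fgf12 among ligands and homologous factors, Fgfrl1 (1.39) among receptors, Ext1 (-1.14) and Hs6st2 at 1450047_at (-0.93) among heparan sulfate genes, Braf (-0.95) and Sos2 (0.81) among transducers, Cbl (-1.99) and Spred2 (1.27) among inhibitors, and Ets1 (-0.98) among ERK response genes. Fgf12 read 3.35 and 7.07 in Sertoli cells, against 3.24 and 3.39 in pre-granulosa cells, so that 1 Sertoli array carried its difference of 1.90 ± 1.08. Dusp9, another ERK phosphatase, lay on the XX side, with 8.28 and 8.47 in testes, against 10.50 and 10.57 in ovaries (-2.16 ± 0.19, adjusted p = 0.0101). It read 7.81 and 7.58 in Sertoli cells, against 8.55 and 8.95 in pre-granulosa cells (-1.06 ± 0.19, adjusted p = 0.0317). Probe sets with lower means were called as well, of Lrig1, a receptor inhibitor (1.98 ± 0.19, adjusted p = 0.00478), and of Hs6st2, a heparan sulfate 6-O-sulfotransferase (-2.0 ± 0.23, adjusted p = 0.00768).

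**Figure D4:**
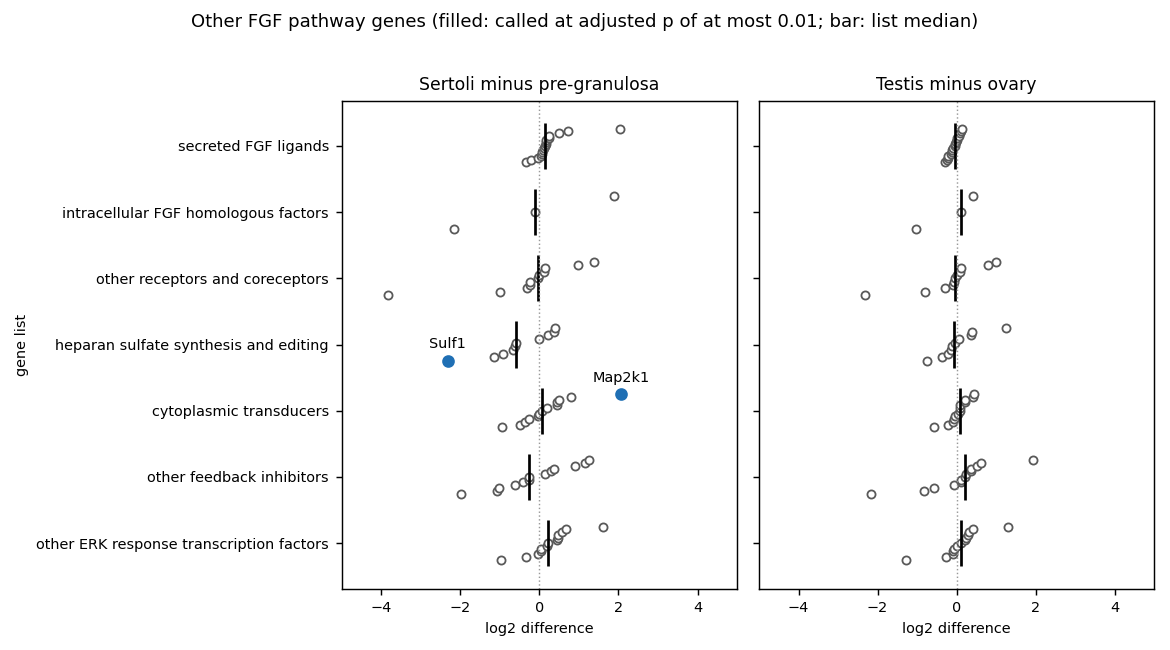
Log2 difference of each gene in 7 lists of other FGF pathway genes, in Sertoli minus pre-granulosa cells (left) and testis minus ovary (right). Open points were not called, filled points passed an adjusted p of 0.01 and bars are list medians; Sulf1 and Map2k1 are the 2 filled points, both on the left.

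Genes whose pattern was most like that of 2 members were looked up by Pearson correlation over the 8 arrays, among 16328 genes, as a description. The points fall into 4 groups of 2 arrays that share a normalization set. For Etv5 at 1428142_at they were Selenoh (r = 0.998), Lmnb1 (0.996), P4ha1 (0.993), Cse1l (0.991) and Fip1l1 (0.990). For Fgf9 at 1438718_at they were Rasl12 (0.983), Atp8a1 (0.977), Cela3b (0.974), Nfe2 (0.973) and Cntrl (0.973), and at 1420795_at Edil3 (0.949) was first. The pair of lists for Fgf9 shared 0 genes.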

How the data were processed

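The values are log2 expression per probe set of 8 arrays, as the authors deposited them; RMA is the tool given per the submitters' processing notes, whose version is not given in the sources used here, and about 20 ng of total RNA per sample was amplified and labelled, per the labels. The table held 45101 probe sets, of which 64 array controls were left out. Gene symbols came from the platform annotation, and chromosomes and promoter sequences from RefSeq tables of GRCm38.p6. The test was limma 3.58.1 under R 4.3.3 (1 mean per group over 8 arrays, eBayes, 4 residual degrees of freedom, Benjamini-Hochberg over 45037 probe sets, calls at 0.01). It was run on simulated data in which each probe set had the same spread in all groups. That run does not cover groups of unequal spread. Root mean square replicate SDs were 0.428 (Sertoli), 0.531 (pre-granulosa), 0.198 (testis) and 0.299 (ovary), so the pooled spread lies below that of the sorted cells and above that of the organs. Alternatives were quantile normalization, centring, a filter on dim probe sets (mean of at most 5), a weight per group, a trend, a replicate block, a threshold of 0.05, fits on 1 set, and omission of each array. All members and their probe sets are named; of the other lists, called genes and the 2 largest not called were eligible, and further probe sets, Dusp9, Fos, Egr1, C1qb, Dhh and Foxl2, and the genes nearest to the second Fgf9 probe set, were named after their values were seen. The members and lists were chosen with earlier results of these data known.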

Additional observations from a re-analysis of the deposited data

Results flagged for a closer look

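Fgfr1 at 1436551_at moved one way in the sorted cells and the other way in the organs: both Sertoli arrays read below both pre-granulosa arrays (-0.44 ± 0.22) and both testis arrays above both ovary arrays (0.29 ± 0.22). The difference of the 2 differences was -0.72 (adjusted p = 0.455), which was not called. Groups of 2 arrays are too small for a search for single outlying arrays.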

How the results depend on the processing

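The number of member probe sets called moved with most settings, while the direction of the called ones did not. For Sertoli minus pre-granulosa it was 5, with 10 when probe sets with a mean of at most 5 were left out, 10 at a threshold of 0.05, 1 with a weight per group, 3 with a replicate block, 0 with the sorted arrays alone and 1 to 7 over the omissions of an array. For Sertoli minus testis it was 3, with 6 with a weight per group, 5 with a trend, 1 with the block, 9 at 0.05 and 0 to 5 over the omissions. For pre-granulosa minus ovary it was 3, with 8 without centring, 1 with the block, 11 at 0.05 and 0 to 3 over the omissions. For the difference of the differences it was 0, with 1 at 0.05, and for testis minus ovary it was 0 under all alternatives run. Same-numbered replicates did not vary together (correlations of -0.16 to 0.05 between groups), so the numbers give no pairing; under the replicate block the calls of Etv5 at 1428142_at and Spry4 at 1440867_at were lost (adjusted p = 0.0157 and 0.0246). Over all probe sets the calls for Sertoli minus pre-granulosa were 816, with 264 under the weight and 341 under the block. The share of all probe sets called there was 3.01% without dim probe sets and 5.5% at 0.05. For Sertoli minus testis it was 12.7% with the weight, 10% with the trend, 2.17% with the block and 25.9% at 0.05. For pre-granulosa minus ovary it was 8.28% without centring, 2.06% with the block and 22% at 0.05. For the difference of the differences it was 0.251% at 0.05. The sign turned in results that were not called. For Dusp6 in Sertoli minus testis it was 0.028 with quantile normalization over all arrays and -0.49 to 0.090 over the omissions. For Fgfr2 at 1433489_s_at in pre-granulosa minus ovary it was -0.30 without centring and -0.67 to 0.83 over the omissions. The causes were not tested. Over the omissions Sertoli minus pre-granulosa ranged from -0.055 to 0.13 for Fgfr3 at 1421841_at, -0.044 to 0.32 for Fgf13 at 1418498_at, -1.39 to 0.55 for Fgfr1 at 1424050_s_at, -0.39 to 1.01 for Etv5 at 1420998_at, -0.13 to 0.54 for Spry4 at 1422020_at and -0.019 to 1.11 for Etv4 at 1443381_at. Testis minus ovary ranged from -0.41 to 0.070 for Fgfr1 at 1424050_s_at, -0.28 to 0.19 for Fgfr1 at 1425911_a_at, -0.092 to 0.016 for Etv5 at 1420998_at and -0.020 to 0.17 for Map2k1. The difference of the differences ranged from -1.22 to 0.72 for Fgfr1 at 1424050_s_at and -0.15 to 0.40 for Spry2 at 1436584_at. Sertoli minus testis ranged from -0.41 to 0.37 for Fgfr2 at 1420847_a_at, and pre-granulosa minus ovary from -0.40 to 0.15 for Spry4 at 1440867_at and -0.68 to 0.50 for Fgf9 at 1438718_at. Where an omission left 1 array in a group, that array was assumed to vary like the other groups. Of the 24 probe sets 3 had a mean over the arrays at or under 4.78, and little can be read from those.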
